A study of Homo sapiens with 16 samples.

Results

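The genes of transforming growth factor beta (TGF-beta) signalling were examined in the human line H1299, derived from a non-small cell lung carcinoma, after knockdown of YEATS2, a subunit of the ATAC histone acetyltransferase complex that reads acetylated histones. The 9 genes were taken by symbol, as a list of pathway genes, from the 12676 genes of the deposited RNA-seq table. This list was chosen with earlier results of these data known. All 9 were found in the table: the ligand genes TGFB1 and TGFB2, the receptor genes TGFBR1, TGFBR2 and TGFBR3, and SMAD2, SMAD3, SMAD4 and SMAD7. All cells were infected with a lentiviral pLKO vector for 48 h in polybrene at 8 µg/ml and then selected with puromycin at 2 µg/ml for 4 to 7 days, per the labels. The vector expressed a non-targeting shRNA in the 2 control libraries (shNT, titled shCtrl) and an shRNA against YEATS2 in the 2 knockdown (KD) libraries (shYEATS2), whose labels do not name the hairpin. The study describes duplicate RNA-seq with an shRNA of efficient KD and further RNA-seq with another of partial KD. The shRNAs were not compared here. No library came from cells given TGF-beta or a receptor inhibitor, and the ChIP-seq samples of the series were not analysed here. The study describes the libraries of a group as independent biological replicates, and the labels do not say whether they came from separate infections.

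TGF-beta ligands are secreted bound to their own propeptide and to latent TGF-beta binding proteins, which anchor them in the extracellular matrix until they are released. The free ligand brings together the type II receptor TGFBR2 and the type I receptor TGFBR1, which phosphorylates SMAD2 and SMAD3. These join SMAD4 and enter the nucleus, where they regulate target genes, and SMAD7 is a target that blocks the receptors in turn. In lung epithelium and carcinoma cells the pathway is known both for restraint of growth and for epithelial to mesenchymal transition.

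The listed genes received 34718921 to 39417787 reads per library. Read counts were scaled by TMM, a method that sets library sizes so that most genes show no change, to the mean library size, and these scaled counts are the values given by library throughout. Groups were compared by the quasi-likelihood test of edgeR, with p-values adjusted over all genes by the Benjamini-Hochberg method, and a gene was called at a false discovery rate (FDR) under 0.01. YEATS2, the target of the shRNA, had scaled counts of 4482 and 4104 under shNT, against 665 and 673 under shYEATS2, a log2 fold change of -2.68 with an FDR of 0.000583 from this edgeR test. Of all genes tested, 12.9% were called higher and 12.5% lower in KD cells. With total counts in place of TMM the median of all log2 fold changes moved by 0.12 and the calls went from 1630 higher and 1581 lower to 2363 higher and 1166 lower, so fold changes below are those on the TMM scale. Of 7 genes taken as markers of a lung epithelial or carcinoma line, KRT8, KRT18 and VIM were listed, whereas EPCAM, CDH1, KRT19 and NKX2-1 were not. None of the 5 endothelial and none of the 6 immune markers was listed. A set of interferon-induced genes was higher in the KD libraries, with summed scaled counts of 8470 and 8236 in the shNT libraries against 10440 and 18997 in the shYEATS2 libraries. Of its 12 listed genes 4 were called higher (33.3%), and the sum was largest in shYEATS2 replicate 2. Both KD libraries were above both controls for 11 of the 12, and for 39.7% of all genes. The table lists only genes with at least 101 reads in some library, which OASL, OAS2 and IFI44 reached only under shYEATS2. Genes this low under shNT could be listed only with a higher count in some KD library. The part of the interferon difference in the results on the TGF-beta genes was not tested.

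In YEATS2 KD cells 3 of the 9 TGF-beta genes rose, the type III receptor TGFBR3, the type II receptor TGFBR2 and the ligand TGFB2. None was called lower by edgeR's quasi-likelihood test, which called 12.9% of all genes higher and 12.5% lower. At an unadjusted p under 0.05, 1 of the 9 was lower, and DESeq2 and exactTest each called 1 lower, in all cases TGFB1. Of all 12676 genes DESeq2 called 2190 lower and exactTest, with TMM scaling, 2497. The type I receptor TGFBR1 and the signal-carrying SMAD2, SMAD3 and SMAD4 were not called, and their 95% intervals kept within 0.41 of no change on the log2 scale. TGFB1, by far the more abundant ligand transcript, was lower in both KD libraries but missed the threshold. Of the 9 genes, 5 had both KD libraries above both controls and 1 had both below, while 39.7% of all genes lay wholly above and 39.8% wholly below. In these bulk libraries, a change in the share of cells that express a gene and a change in its RNA per cell cannot be told apart. The median log2 fold change of the 9 genes was 0.16, and that of all genes was -0.0019. The libraries were deep for these genes, with 237 to 10082 reads per gene and library before scaling.

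**Figure D1:**
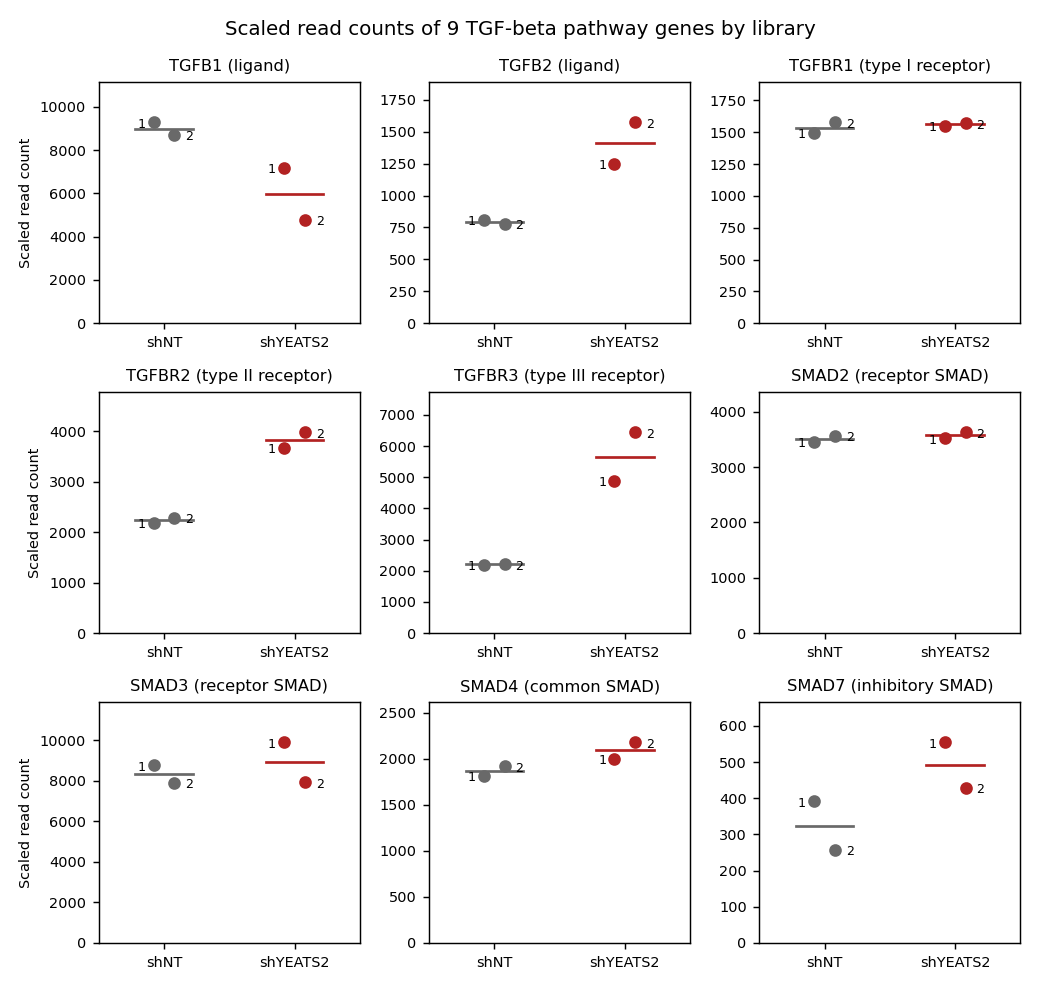
Scaled read counts (y axis, from 0) of the 9 TGF-beta pathway genes in the 2 shNT and 2 shYEATS2 libraries (x axis); points are libraries marked with their replicate number and bars are group means. TGFB2, TGFBR2 and TGFBR3 lie higher in both KD libraries, TGFB1 lies lower in both, and the groups overlap for TGFBR1, SMAD2 and SMAD3.

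Among the ligands, TGFB1 (ENSG00000105329, chr19:41807492-41859827 of GRCh37, minus strand) encodes the most widely expressed form of TGF-beta. Its scaled count was 9272 and 8698 under shNT, against 7181 and 4772 under shYEATS2. Both KD libraries were below both controls, but they differed from each other by more than the higher of them differed from the lower control. The log2 fold change was -0.59 with a 95% interval from -1.03 to -0.15 and an FDR of 0.0361 by edgeR's quasi-likelihood test, which is not a call at 0.01. TGFB1 was called lower by DESeq2 (FDR 0.00314) and by edgeR's exactTest (FDR 0.00793), and without shYEATS2 replicate 1 (log2 fold change -0.91, FDR 0.000933), whereas without shYEATS2 replicate 2 the log2 fold change was -0.32. An opposite-strand gene, HNRNPUL1, shares 6.59% of the exon length of TGFB1, and the kit did not mark strand.

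TGFB2 (ENSG00000092969, chr1:218518678-218617961, plus strand) encodes the form of TGF-beta that binds TGFBR2 poorly unless TGFBR3 presents it. Its scaled count was 809 and 777 under shNT, against 1250 and 1572 under shYEATS2. The control libraries were nearly equal and both KD libraries were well above them. TGFB2 was 1.78-fold higher in KD cells, a log2 fold change of 0.83 with SE 0.14 and an FDR of 0.00396 in the edgeR test. The call was lost without shNT replicate 1 (log2 fold change 0.86, FDR 0.0111) and without shNT replicate 2 (0.80, FDR 0.0131), and the direction held in both cases. Non-coding genes share part of the exons of TGFB2, TGFB2-OT1 22.7% on the same strand and TGFB2-AS1 11.6% on the opposite strand, so reads there could have been assigned to either gene or to none, depending on the annotation used in counting.

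The mix of ligand transcripts was different in the KD libraries when reads were divided by transcript length. TGFB1, TGFB2 and TGFB3, the third ligand gene, made up 94.1%, 3.94% ± 0.064 (SD, n = 2) and 1.92% of ligand reads per kilobase in the shNT libraries. In the shYEATS2 libraries the TGFB2 share was 7.38% in replicate 1 and 13.1% in replicate 2, a mean of 10.2% ± 4.05 (SD, n = 2). Both KD values were above both control values, and the exact permutation test gave its smallest possible p of 0.333 for 2 against 2 libraries (two-sided), so that this comparison cannot reach 0.05. TGFB1 transcripts remained the large majority in every library, with shares of 89.5% and 84.0% after KD. TGFB3 itself had overlapping groups, with scaled counts of 239 and 214 against 304 and 200.

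Of the 3 receptor genes, those of the type II and type III receptors rose. TGFBR3 (ENSG00000069702, chr1:92145900-92371892, minus strand) encodes betaglycan, the type III receptor, which binds ligand without a kinase of its own and hands it to TGFBR2, and whose shed extracellular part can instead hold ligand away from the cell. Its scaled count was 2196 and 2210 under shNT, against 4888 and 6443 under shYEATS2. The controls lay within 1% of each other, and the lower KD library had over 2 times their level. TGFBR3 had the largest change of the 9 genes, 2.57-fold higher, with a log2 fold change of 1.36, a 95% interval from 1.02 to 1.70 and an FDR of 0.00127 (edgeR). Only 2.83% of all genes had a larger log2 fold change. Leaving out each library in turn gave values from 1.15 to 1.55, with a call each time.

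TGFBR2 (ENSG00000163513, chr3:30648093-30735634, plus strand) encodes the type II receptor kinase to which the ligand binds first. Its scaled count was 2187 and 2287 under shNT, against 3663 and 3974 under shYEATS2. The groups were far apart against a small spread within each. TGFBR2 was 1.71-fold higher, with a log2 fold change of 0.77, a 95% interval from 0.54 to 1.00 and an FDR of 0.00187 (edgeR). It was called with any of the libraries left out, with a log2 fold change between 0.71 and 0.83.

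TGFBR1 (ENSG00000106799, chr9:101866320-101916474, plus strand), also known as ALK5, encodes the type I receptor kinase that phosphorylates the SMADs. Its scaled count was 1496 and 1576 under shNT, against 1552 and 1570 under shYEATS2. All 4 values lay close together and the KD libraries fell between the controls. The log2 fold change was 0.02 with a 95% interval from -0.20 to 0.25 and an FDR of 0.848 (edgeR), and it was -0.02 without shNT replicate 1. Per kilobase of transcript, TGFBR1 went from 21.9% ± 0.289 (SD, n = 2) of the reads of the 3 receptors in shNT cells to 12.2% ± 1.29 in shYEATS2 cells. TGFBR3 went from 32.2% ± 0.630 to 45.0% ± 3.68, and TGFBR2 was at 45.8% ± 0.341 and 42.8% ± 2.39 (SD, n = 2 each). For each of these shares the libraries of the groups did not overlap, and the exact permutation p was 0.333, the smallest that 2 against 2 allows.

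**Figure D2:**
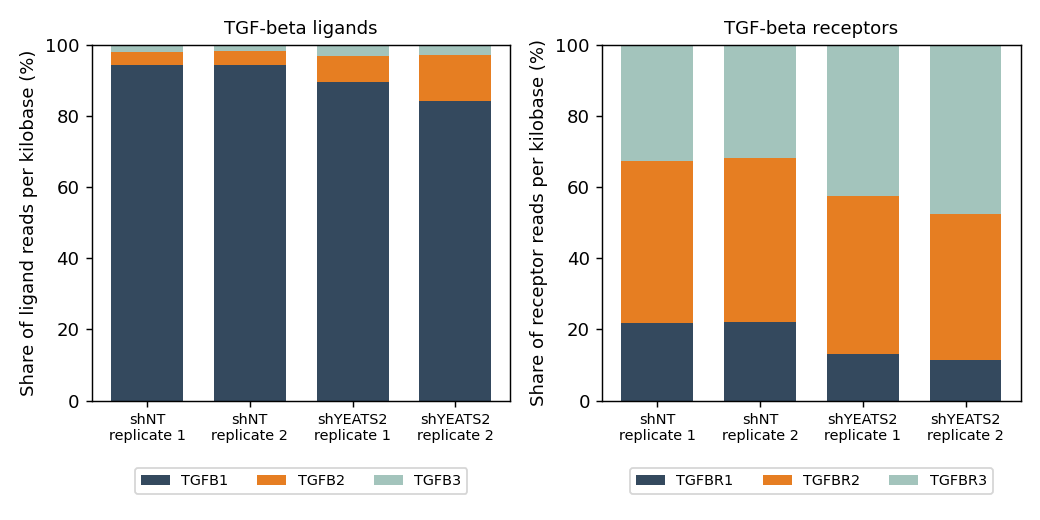
Shares of the reads per kilobase of canonical transcript (y axis, percent) that came from each TGF-beta ligand gene (left) and receptor gene (right) in each library (x axis). The TGFB2 share is 3.89% and 3.98% in the shNT libraries against 7.38% and 13.1% in the shYEATS2 libraries, and the TGFBR1 share is 21.7% and 22.1% against 13.1% and 11.3%.

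The sequence before the start of each of the 3 called genes is shown because SMAD complexes and their partner AP-1 bind short DNA words that can be looked for in it. The 250 bases upstream of the RefSeq start nearest to the annotated gene start were matched to GRCh37 and are written 5′ to 3′ on the strand of the gene, in lower case with CAGAC, a short SMAD-binding word, in capitals on either strand.
TGFB2, chr1:218518428-218518677, plus strand: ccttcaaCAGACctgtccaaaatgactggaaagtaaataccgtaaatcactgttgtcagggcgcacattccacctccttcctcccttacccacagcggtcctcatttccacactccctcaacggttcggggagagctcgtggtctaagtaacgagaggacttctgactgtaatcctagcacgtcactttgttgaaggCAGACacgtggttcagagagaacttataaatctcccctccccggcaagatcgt
TGFBR2, chr3:30647843-30648092, plus strand: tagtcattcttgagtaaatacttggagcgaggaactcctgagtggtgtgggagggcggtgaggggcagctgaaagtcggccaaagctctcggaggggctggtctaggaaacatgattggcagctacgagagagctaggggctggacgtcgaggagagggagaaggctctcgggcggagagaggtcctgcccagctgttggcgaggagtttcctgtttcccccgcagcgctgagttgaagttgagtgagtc
TGFBR3, chr1:92351709-92351958, minus strand: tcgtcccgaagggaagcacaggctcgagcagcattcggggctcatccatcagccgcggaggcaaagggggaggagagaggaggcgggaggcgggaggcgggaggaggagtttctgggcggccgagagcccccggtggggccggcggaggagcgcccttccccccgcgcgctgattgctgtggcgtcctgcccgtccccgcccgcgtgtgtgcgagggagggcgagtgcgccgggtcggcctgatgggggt

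Of these windows only that of TGFB2 held CAGAC, at 2 places, and the word was present in 38% of 35116 RefSeq promoter windows of the same length. For each of the 9 genes 1 window was searched. Neither the palindrome GTCTAGAC, present in 0.182% of windows, nor TGANTCA, the AP-1 word, present in 6.57%, was found in it. Windows of other RefSeq starts of the same genes, such as TGFBR1 with 8 windows in all and SMAD3 with 5, were not searched. Beyond TGFB2, CAGAC occurred in the windows of SMAD7 (2 places) and TGFBR1 (1 place). The TGFBR3 window had a GC content of 73.6%, the TGFBR2 window 58.4% and the TGFB2 window 50.4%, with a median of 58.0% over all windows. The TGFBR3 window belongs to a start 20184 bases inside the annotated gene. Annotated exons of genes other than TGFB2, on either strand, took up 250 bases of the TGFB2 window. All 3 words were searched on both strands, and a match or its lack describes these letters only.

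The SMADs that carry the signal differed little between the groups. SMAD2 (ENSG00000175387, chr18:45335328-45457517, minus strand), which is phosphorylated by the type I receptor, had scaled counts of 3461 and 3564 under shNT, against 3519 and 3628 under shYEATS2. The groups overlapped, and the log2 fold change was 0.02 with a 95% interval from -0.19 to 0.24 and an FDR of 0.836 (edgeR). SMAD3 (ENSG00000166949, chr15:67356101-67487511, plus strand), the receptor SMAD that binds DNA directly, had 8772 and 7903 under shNT, against 9906 and 7933 under shYEATS2. The highest value was in shYEATS2 replicate 1, the groups overlapped, and the log2 fold change was 0.10 with a 95% interval from -0.21 to 0.41 and an FDR of 0.559 (edgeR).

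SMAD4 (ENSG00000141646, chr18:48554898-48611415, plus strand), the common partner of the receptor SMADs, had scaled counts of 1813 and 1918 under shNT, against 2001 and 2179 under shYEATS2. Both KD libraries were above both controls by a small margin, and the log2 fold change of 0.16 had a 95% interval from -0.07 to 0.40 and an FDR of 0.201 (edgeR). SMAD7 (ENSG00000101665, chr18:46446223-46477335, minus strand), the inhibitory SMAD, had 392 and 257 under shNT, against 555 and 430 under shYEATS2. Both KD libraries were above both controls, and replicate 1 was the higher in either group. Its log2 fold change of 0.60 had a 95% interval from 0.06 to 1.14 and was not called (FDR 0.0657 by edgeR's quasi-likelihood test), and it lay between 0.33 and 0.93 with each library left out. SMAD7 was called higher by edgeR's exactTest with total counts (FDR 0.00744).

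**Figure D3:**
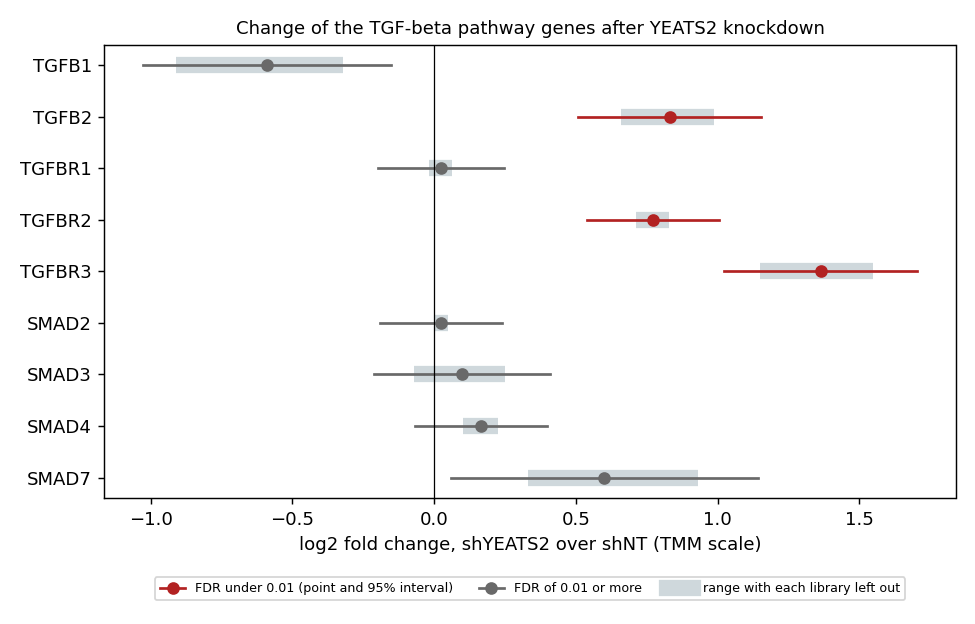
Log2 fold changes of shYEATS2 over shNT on the TMM scale (x axis) for the 9 genes (y axis), with points and 95% intervals from edgeR's quasi-likelihood fit of 2 against 2 libraries and wide bands for the range of the estimate when each library is left out. TGFB2, TGFBR2 and TGFBR3 have intervals above 0 and pass an FDR of 0.01, the intervals of TGFBR1, SMAD2, SMAD3 and SMAD4 include 0, and those of TGFB1 and SMAD7 lie to either side of it without a call.

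Levels were compared between genes as reads per kilobase of canonical transcript, scaled to library size (RPKM) in the shNT libraries. TGFB1 stood highest at 88.7 ± 4.00 (SD, n = 2), followed by SMAD3 at 35.4 ± 2.61, TGFBR2 at 13.6 ± 0.426 and TGFBR3 at 9.54 ± 0.0420. TGFBR1 at 6.49 ± 0.241 and SMAD4 at 5.84 ± 0.232 were next, and TGFB2 at 3.71 ± 0.107 was above SMAD7 at 2.67 ± 0.782. No neighbouring pair in this order had overlapping shNT values. In the shYEATS2 libraries TGFBR3, at 24.5 ± 4.76, and TGFBR2, at 23.1 ± 1.33, overlapped, as did TGFBR1, SMAD4 and TGFB2 at 6.54 to 6.60. SMAD2 is left out of the order because its canonical transcript of 34626 bases divides its reads by a length that these cells may not use.

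Outside the 9 genes, the pathway was followed through lists by role, chosen with earlier results of these data known. Shares of such lists beside those of all genes are descriptive only. The lists held 165 genes, of which 119 were in the table. Of these 25 were called higher (21.0%) and 7 lower (5.88%), against 12.9% and 12.5% of all genes, and their median log2 fold change was 0.19. The table lists only genes with at least 101 reads in some library, so a gene below this in either group was listed only through the other. Without shNT replicate 2 the counts were 12 higher (10.1%) and 4 lower (3.36%), where 6.96% and 7.25% of all genes were called in the same fit. Without shNT replicate 1, 4 were called lower (3.36%, against 6.71% of all genes). Without shYEATS2 replicate 1 the number lower was 11 (9.24%, against 16%), and without shYEATS2 replicate 2 it was 4 (3.36%, against 8.36%). With total counts 32 were called higher (26.9%, against 18.6%) and 6 lower (5.04%, against 9.20%).

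Of the 9 other receptors of the TGF-beta superfamily in the table, 5 rose (55.6%, against 12.9% of all genes). Both KD libraries were above both controls for 8 of the 9, and for 39.7% of all genes. None was called lower, against 12.5% of all genes (none at an unadjusted p under 0.05, and none by DESeq2, exactTest or limma-trend either). Among those that rose were the activin type II receptors ACVR2B and ACVR2A, with log2 fold changes of 1.07 and 0.62, and the type I receptors ACVR1 and ACVR1B, with 0.73 and 0.66. ACVR2B went from 651 and 715 scaled reads under shNT to 1289 and 1583 under shYEATS2, with an FDR of 0.00183 (edgeR). BMPR2, the BMP type II receptor, named after its value was seen as the remaining called gene, had a log2 fold change of 0.60. The BMP type I receptor BMPR1A, named for the same reason, did not share the direction, with 1474 and 1534 against 1423 and 1490.

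The genes that store and activate latent TGF-beta held 8 higher (47.1%) and 2 lower calls (11.8%) among 17 listed. Of all genes, 12.9% were called higher and 12.5% lower. The median log2 fold change of the 17 was 0.54. FBN1, which encodes fibrillin-1, the microfibril protein to which latent complexes attach, had scaled counts of 2438 and 2426 under shNT, against 5960 and 7389 under shYEATS2. LTBP3, a latent TGF-beta binding protein, went from 2059 and 1995 to 4510 and 5662. Both genes had no overlap between groups, with log2 fold changes of 1.46 (FDR 0.000920) and 1.33 (FDR 0.00114) in the edgeR test. BMP1, a protease that cleaves LTBPs, and MMP2, a gelatinase, were 2.04-fold and 3.60-fold higher, MMP2 from a low level of 37.7 and 59.7 scaled reads. The table lists only genes with at least 101 reads in some library, which MMP2 reached only under shYEATS2. The other LTBP genes, named after their values were seen, were also called higher, with log2 fold changes of 0.94 for LTBP2, 0.73 for LTBP1 and 0.54 for LTBP4. The called genes that were lower, PLAU at -0.72 and MMP14 at -0.91, named likewise, encode the plasminogen activator urokinase and a membrane-bound protease.

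Few other ligands and antagonists were listed. GDF15, a stress-induced ligand, had 6 and 30 reads under shNT, against 137 and 349 under shYEATS2 before scaling, with a log2 fold change of 3.51 and a 95% interval from 1.98 to 5.03. GDF11 rose by 0.92 and BMP6 fell by 0.85 on the log2 scale, and the remaining 4 of the 7 ligands were not called. VASN, which encodes vasorin, a membrane protein that binds TGF-beta, rose from 46.3 and 59.7 scaled reads to 248 and 324, a log2 fold change of 2.43 with an FDR of 0.00114 (edgeR). The other 3 listed antagonists were not called. The table lists only genes with at least 101 reads in some library, which GDF15 and VASN reached only under shYEATS2. A gene this low under shNT could be listed only with a higher count in some KD library.

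Of the SMADs of the BMP branch, SMAD5 was called lower. It fell from 2635 and 2474 scaled reads under shNT to 1773 and 1659 under shYEATS2, a log2 fold change of -0.57 with an FDR of 0.00425 (edgeR). SMAD1 and SMAD9 had both KD libraries below both controls with log2 fold changes of -0.30 and -0.34, and neither was called (FDR 0.0860 and 0.184, edgeR). SMAD6, the inhibitory SMAD of that branch, had 59.2 and 47.7 against 109 and 111 and missed the threshold (log2 fold change 1.04, FDR 0.0128, edgeR). The table lists only genes with at least 101 reads in some library, which SMAD6 reached only under shYEATS2. A difference between the branches was not tested.

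The regulators of SMADs and receptors held 4 higher (11.4%) and 2 lower calls (5.71%) among 35, against 12.9% and 12.5% of all genes. Their median log2 fold change was -0.03. CAV1, which encodes caveolin-1, a membrane scaffold known to promote turnover of TGF-beta receptors, was the most lowered gene of the lists, from 15224 and 15465 scaled reads under shNT to 5424 and 4529 under shYEATS2. The groups were far apart, with a log2 fold change of -1.62 and an FDR of 0.000793 (edgeR). ZFYVE9 (SARA), which presents SMADs to the receptor, RNF111 (Arkadia), a ubiquitin ligase that removes SMAD7, and USP9X, a deubiquitinase of SMAD4, rose by 0.58, 0.56 and 0.51 on the log2 scale. Of 15 genes of the non-SMAD branch none was called in either direction at an FDR under 0.01 by the quasi-likelihood test, DESeq2 and exactTest each called 1 of them lower, and at an unadjusted p under 0.05 the first test had 1 higher and 3 lower.

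**Figure D4:**
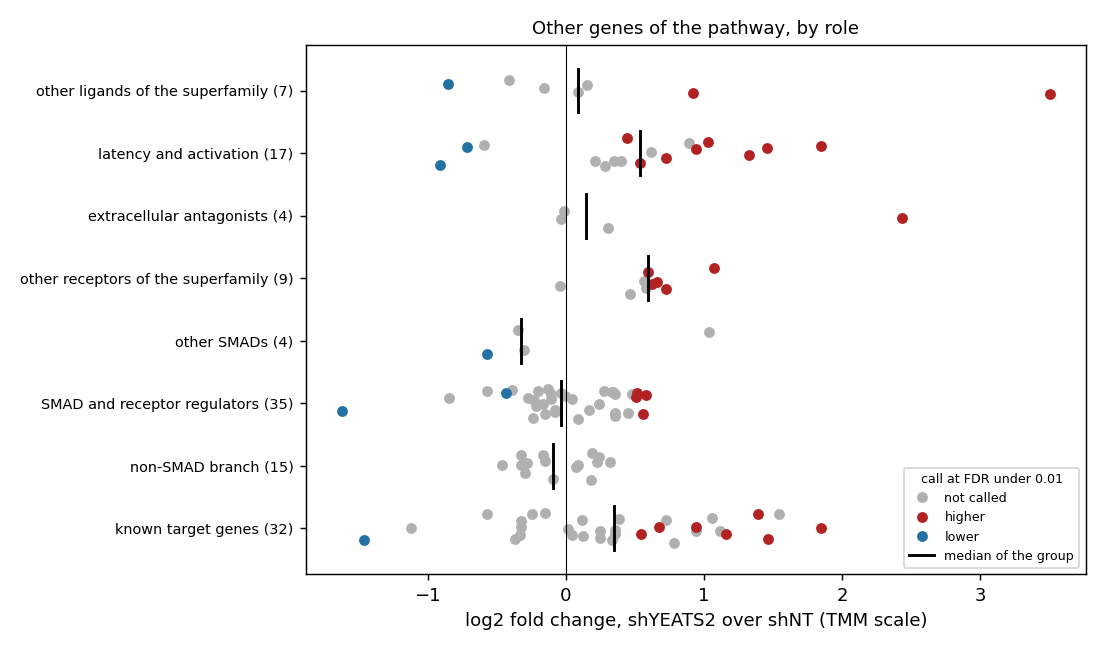
Log2 fold changes of shYEATS2 over shNT on the TMM scale (x axis) of the other pathway genes in the table by role (y axis, number of genes in brackets); each point is a gene, coloured by its call at an FDR under 0.01, and black bars are group medians. The other receptors (median 0.60) and the latency genes (0.54) lie mostly to the right of 0, while the regulators (-0.03) and the non-SMAD branch (-0.09) are spread around it.

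Known target genes of TGF-beta were called in both directions. The list joins genes that TGF-beta is known to raise in many cell types with genes that it is known to lower, and these were not separated. Of 32 listed, 7 were called higher (21.9%) and 1 lower (3.13%), against 12.9% and 12.5% of all genes. Their median log2 fold change was 0.35. Both KD libraries were above both controls for 16 of the 32 and below for 6, against 39.7% and 39.8% of all genes. FN1, which encodes fibronectin, went from 1705 and 2152 scaled reads under shNT to 4649 and 5990 under shYEATS2, a log2 fold change of 1.46 with an FDR of 0.00141 (edgeR). BHLHE40, a transcription factor, rose by 1.39 and COL7A1, which encodes the collagen of anchoring fibrils, fell by 1.46 on the log2 scale, and MMP2 belongs to this list as well. The table lists only genes with at least 101 reads in some library, which MMP2 reached only under shYEATS2 and COL7A1 only under shNT. CTGF, which encodes a matricellular growth factor and was named after its values were seen, had 12463 and 7018 scaled reads under shNT, against 21911 and 15536 under shYEATS2. Both KD libraries were above both controls, but replicates differed widely, and its log2 fold change of 0.94 was not called (FDR 0.0293, edgeR). CYR61, VIM and ID2, other uncalled targets named likewise, had both KD libraries below both controls, with log2 fold changes of -0.33, -0.37 and -0.57. PDGFRB was the only listed gene of 10 fibroblast markers, with 8.61 and 17.4 scaled reads under shNT against 60.9 and 179 under shYEATS2. It reached 101 reads only in shYEATS2 replicate 2, and a marker this low under shNT could be listed only through a higher KD library. The part of other cells in the PDGFRB values was not tested.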

How the data were processed

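RNA-seq libraries were made by the authors with a poly(A) mRNA kit that does not mark strand, from 2 shNT and 2 shYEATS2 samples, grouped by their titles. The authors mapped reads to hg19 (RNA-Seq unified mapper in the methods, TopHat2 2.0.10 in the submitters' processing notes), counted them with HTSeq 0.6.1p1 and deposited whole-number read counts per gene without normalization. The gene annotation used in counting is not given in the sources used here. The deposited table lists only genes with at least 101 reads in some library. It also holds the authors' own log2 fold changes, and the authors' p-values and FDR values, which were not used.

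A minimum of 10 reads in 2 libraries was set, which all 12676 genes met. They were tested together with edgeR 4.0.16 (R 4.3.3; glmQLFit and glmQLFTest, TMM scaling, no replicate block, Benjamini-Hochberg adjustment), with an FDR threshold of 0.01. The study's methods name edgeR's exactTest, which was run as an alternative. The other alternatives were DESeq2 1.42.0, limma-trend (limma 3.58.1, prior count 1), other scalings and filters, an FDR of 0.05, a replicate block and each library left out in turn. In those last fits the lone library of a group is assumed to vary like the libraries of the other group.

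The 9 genes and all gene lists were chosen with earlier results of these data known. Genes named are the 9 members, YEATS2, in each list up to 4 called genes of the largest absolute log2 fold change and a mean of 100 or more scaled reads, all other SMADs, and for each called member the 3 genes whose profiles over the 4 libraries lay nearest. Those profiles used log2(scaled count + 1) centred on the shNT mean. Positions and the lengths of canonical transcripts came from GENCODE (GRCh37), which matched 98.3% of identifiers, and promoter sequences from RefSeq windows matched letter by letter to GRCh37. Shares per kilobase were compared with two-sided exact permutation tests. Some results on single genes of the lists are not reported here.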

Additional observations from a re-analysis of the deposited data

How the results depend on the processing

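For the 9 genes, 123 of 135 results (9 genes, 15 settings) kept their direction and side of the threshold, 2 lost a call, 7 gained one and 3 changed sign. The sign changes were in genes near 0 and came with a library left out, where the log2 fold change was -0.0183 to 0.0633 for TGFBR1 and -0.000718 to 0.0473 for SMAD2 (negative without shNT replicate 1) and -0.0709 to 0.250 for SMAD3 (negative without shYEATS2 replicate 1). The 7 gains were in TGFB1 (5) and SMAD7 (2). The number called lower went from 0 to 1 with DESeq2, exactTest with TMM and an FDR of 0.05. With each library left out it was 0 to 1, and the number called higher was 2 to 3.

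Among the other pathway genes, 25 were called higher and 7 lower. DESeq2 called 12 lower, exactTest with TMM 12 lower, exactTest with total counts 44 higher, and an FDR of 0.05 gave 39 higher and 17 lower. With each library left out, 12 to 24 were called higher and 4 to 11 lower. Over all genes, exactTest called 2596 higher and 2497 lower with TMM and 3464 higher with total counts, and an FDR of 0.05 gave 3093 and 3011. With each library left out, 775 to 1971 genes were called higher and 850 to 2024 lower. Fits with 3 libraries have fewer samples by construction, and the cause of the other differences was not tested.

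Over all genes, the log2 difference between replicates 1 and 2 under shNT correlated at 0.403 with the same difference under shYEATS2. There were only 2 pairs of same-numbered libraries, and the labels do not say what a number shares. The numbers were therefore not taken as a pairing. With a replicate block, 1 of the 9 genes was called lower (TGFB1, FDR 0.00286) and SMAD7 was called higher (FDR 0.00348). Of the other pathway genes the block called 40 higher and 16 lower, and of all genes 2742 higher and 2715 lower. These FDR values come from edgeR's quasi-likelihood test.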

Other observations

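The SMAD7 pattern, in which replicate 1 was above replicate 2 in both groups, was shared by several known target genes of TGF-beta. This was looked for after the values had been seen, and the ratio of 1.2 was set then. Of 32 listed target genes, 9 (28.1%) had replicate 1 more than 1.2-fold above replicate 2 in both the shNT and the shYEATS2 group, compared with 295 of 12676 genes (2.33%) over the whole table. In the opposite direction the numbers were 3 of 32 (9.38%) and 650 of 12676 (5.13%). Among the 9 target genes with replicate 1 higher were TGFBI, IGFBP3, CTGF, SKIL, LOX, ID1, JUN and TPM1. TPM1, which encodes a tropomyosin, had 21104 and 13083 scaled reads under shNT, against 17483 and 9703 under shYEATS2. TGFBI, which encodes a matrix protein induced by TGF-beta, had 3532 and 2298 against 8019 and 4615. The labels do not say what same-numbered libraries share, and the cause was not tested.

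The genes whose 4 library values lay nearest to those of TGFBR3 were LTBP3, DNAJC27 and ITGA2, with root mean square differences of 0.0385 to 0.0446 on the log2 scale. For TGFBR2 they were CRYL1, NOMO1 and DIP2C (0.0184 to 0.0235) and for TGFB2 they were GTPBP1, GALNS and TSPAN9 (0.0206 to 0.0226). Likeness over 4 libraries in 2 groups is a description of these profiles only.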
